A study of Rattus norvegicus with 24 samples.

Results

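Transcripts of the synaptic vesicle and release machinery were followed in the dentate gyrus, the hippocampal field whose granule neurons send excitatory axons to CA3. The set holds the synaptotagmins, syntaxins, syntaxin binding proteins, vesicle associated membrane proteins, SNAP proteins, synapsins, complexins, RIM and Unc13 proteins, SV2 proteins, synaptophysin and synaptogyrins. Genes were chosen by symbol, leaving out Stxbp6, which gave 62 genes with 93 probe sets on the array. Of these, 41 genes had a probe set above log2 4 on at least 6 of 21 arrays and were kept, 1 probe set per gene, by highest mean. They stand among 8737 genes that passed the same filter and 15177 probe sets tested. The filter used no group.

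The tissue came from male Long-Evans rats, an outbred strain, without any treatment, and each array is a biological replicate by its label. Aged impaired rats (7 arrays) were 24 to 26 months old and had learned the Morris water maze, a swimming task with a hidden platform, worse than young rats. Aged unimpaired rats (6 arrays) were of the same age and had learned within the young range, and young rats (8 arrays) were 6 months old. Total RNA was taken from microdissected tissue 2 weeks after the task and hybridized to Affymetrix Rat Genome 230 2.0 arrays, and values are log2 probe set summaries made by the authors with GCRMA. A probe set passed the limma test at a p below 0.05 after Benjamini-Hochberg adjustment over the 15177 probe sets, and differences are given as log2 difference ± moderated standard error.

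Fast transmitter release needs vesicle and plasma membrane SNARE proteins to zip together, which pulls the membranes into fusion. Syntaxin 1A, SNAP-25 and synaptobrevin (Vamp1, Vamp2) form that complex, Unc13 proteins prepare it, complexins clamp it and synaptotagmins trigger it when calcium enters. Synapsins hold vesicles in reserve, and other syntaxins and Vamps carry out fusion between endosomes, lysosomes and Golgi membranes in every cell type. In whole tissue, a lower value from fewer cells of a type and a lower value from less RNA per cell cannot be told apart.

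The tissue label was checked against markers. Of 6 granule neuron markers on the array 5 passed the filter, and Prox1, Calb1 and C1ql3, which define these neurons, had medians of 10.8, 11.3 and 12.4 on the log2 scale. Markers of pyramidal neurons (9 of 10), of interneurons (6 of 8) and of glia were measured too, so the tissue holds several cell types. Of 10 markers of meninges and fibroblasts 3 passed the filter, and Col1a1, Col1a2 and Col3a1 did not. The log2 of their summed signal ranged over 10.6 to 14.2 in aged impaired, 10.4 to 10.9 in aged unimpaired and 10.4 to 11.7 in young arrays. The 4 arrays with the most meningeal signal, aged impaired replicates 2, 3 and 7 and young replicate 5, were left out together in a further fit. Of 6 choroid plexus markers only Ttr passed the filter. It ranged over 4.34 to 10.09 in aged impaired, 4.11 to 9.43 in aged unimpaired and 4.17 to 10.78 in young arrays. Its highest value was on young replicate 2, which stayed in that fit. The mossy cell markers Calb2, Drd2 and Calcr did not pass. Aged unimpaired replicate 8 had the lowest median deviation of the vesicle genes themselves, as the next paragraphs show. The check for far arrays, given at the end, did not flag that median. The array was picked by these values, and the main counts are also given without it as a description.

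None of the 41 genes passed the test in any comparison. Between aged impaired and young rats 0 of 41 passed, against 0.514% of all tested probe sets, and the smallest adjusted p of a member was 0.203 (limma). Between aged unimpaired and young rats the count was again 0 of 41, against 1.13% of all probe sets, with a smallest adjusted p of 0.132 (limma). Between aged impaired and aged unimpaired rats 0 of 41 passed, against 0% of all probe sets, with a smallest adjusted p of 0.129 (limma). For all aged against young rats 0 of 41 passed, against 1.11%, with a smallest adjusted p of 0.101 (limma). In an F test over the 3 groups 0 of 41 passed, against 0.896% of all probe sets, and Stx7 came nearest with an adjusted p of 0.063 (limma).

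How large a difference the arrays could leave unseen is given by the 95% intervals. For 34 of 41 genes the interval of aged impaired over young lay within a 1.25-fold change in either direction, and for 32 of 41 that of aged unimpaired over young did. The count was 32 of 41 for aged impaired over aged unimpaired and 37 of 41 for all aged over young. These are 82.9%, 78.0%, 78.0% and 90.2% of the members, beside 77.3%, 72.8%, 72.4% and 82.6% of all tested probe sets. Syt11, whose within-group SD of 0.320 was the highest of the 41, reached beyond this limit in all 4 comparisons. The median within-group SD of the members was 0.136, beside 0.124 over all genes, and the lowest was 0.0547 for Vamp3.

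**Figure D1:**
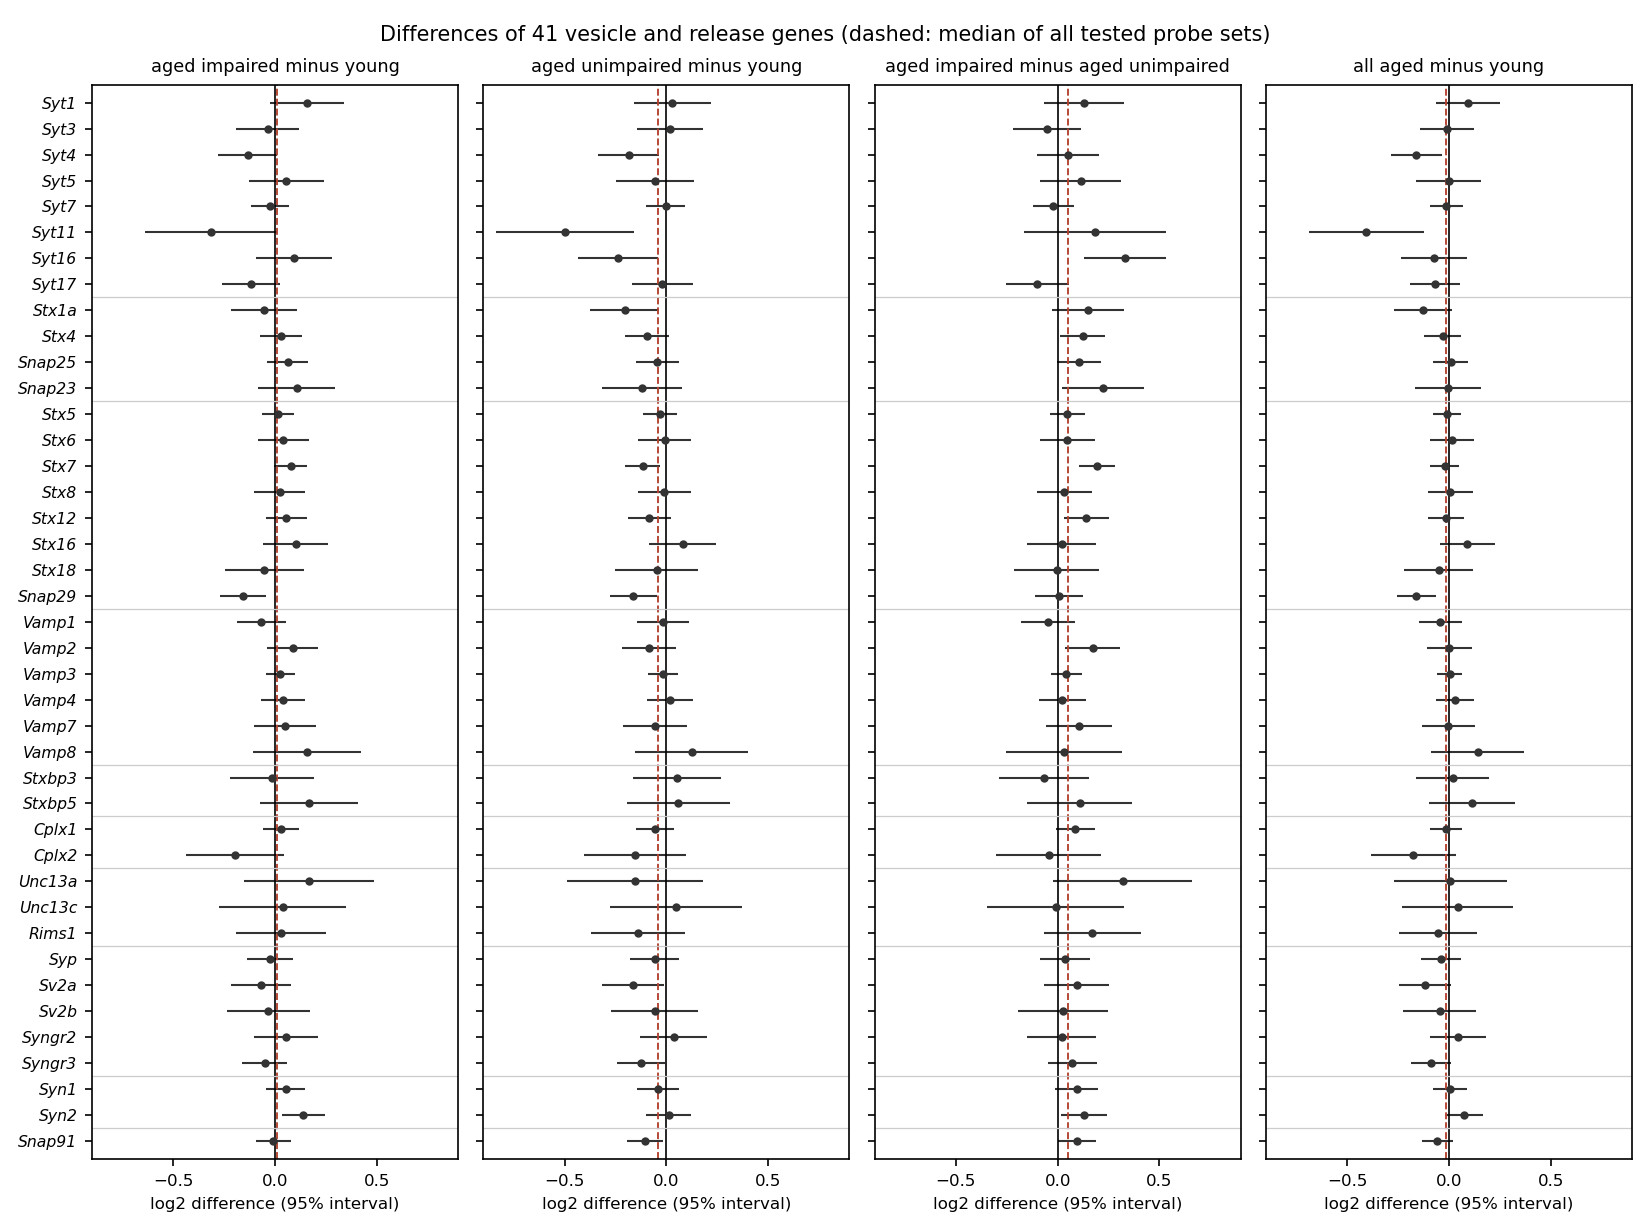
Log2 differences of the 41 genes with 95% intervals in 4 comparisons, in order of role from synaptotagmins at the top to Snap91 at the bottom. The dashed line marks the median of all tested probe sets, which lies at 0.01, -0.04, 0.05 and -0.01 from left to right; 33 points of the third panel lie right of 0, as does that line, and 21 do after quantile normalization (not drawn).

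Although single genes did not pass, the signs were uneven, and so were those of the whole array. In aged impaired against aged unimpaired rats 33 of 41 genes were positive and 8 negative, which became 32 and 9 after centring each array on its median and 21 and 20 after quantile normalization between arrays. Without aged unimpaired replicate 8 the counts were 31 and 10. The median was 0.07, beside 0.05 over all probe sets, of which 72.4% were positive, and after quantile normalization it was 0.01, beside -0.01. In aged unimpaired against young rats 10 were positive and 31 negative, the same after median centring, but 22 and 19 after quantile normalization and 14 and 27 without aged unimpaired replicate 8. The median was -0.05 beside -0.04 over all probe sets, 0.0015 beside 0.01 after quantile normalization and -0.03 beside -0.03 without that array.

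For all aged against young rats 16 were positive and 25 negative, which became 13 and 28 after median centring and 25 and 16 after quantile normalization. Without aged unimpaired replicate 8 the counts were 18 and 23. In aged impaired against young rats 25 were positive and 16 negative as deposited and under both other scalings, with a median of 0.03 beside 0.01 as deposited. Quantile normalization thus turned the majority of signs in the 2 comparisons of aged unimpaired or all aged with young rats and left the comparison of the aged groups nearly even, whereas median centring turned none of them.

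By role, the counts between aged impaired and aged unimpaired rats moved most for the inner membrane SNAREs, where 7 of 8 were positive as deposited, 6 after median centring and 2 after quantile normalization. Vesicle SNAREs gave 5 of 6 as deposited and 2 after quantile normalization, and 3 without the 4 arrays with the most meningeal signal. Vesicle membrane proteins gave 5 of 5 as deposited, 2 after quantile normalization and 4 without aged unimpaired replicate 8. All 4 plasma membrane SNAREs and both synapsins were positive as deposited, under both other scalings and with those arrays left out.

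In aged impaired against young rats the role counts were the same under the 3 scalings but not without the 4 arrays with the most meningeal signal. Synaptotagmins were positive in 3 of 8 cases with all arrays and in 5 of 8 without these 4, vesicle SNAREs in 5 of 6 and 3 of 6, and vesicle membrane proteins in 1 of 5 and 0 of 5. In aged unimpaired against young rats, 2 of 8 synaptotagmins were positive with all arrays and 4 of 8 without aged unimpaired replicate 8.

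At an unadjusted p below 0.05, counts of members are read against the same share of all probe sets. In aged impaired against young rats 2 of 41 members (4.88%) reached it, beside 12.4% of all probe sets, with Syn2 higher (7.69% of all probe sets) and Snap29 lower (4.73%). In aged unimpaired against young rats 9 of 41 (22.0%) did, beside 17.0%, with 0 higher (3.18%) and 9 lower (13.8%). In aged impaired against aged unimpaired rats 8 of 41 (19.5%) did, beside 14.5%, with 8 higher (12.8%) and 0 lower (1.65%). For all aged against young rats 3 of 41 (7.32%) did, beside 14.6%, with 0 higher (5.06%) and 3 lower (9.53%). The counts for aged unimpaired rats did not hold under quantile normalization. Against young rats 0 members were then higher and 2 lower (7.98% and 6.84% of all probe sets), and in aged impaired against aged unimpaired rats 2 were higher and 1 lower (4.51% and 5.79%). With the replicate block, aged impaired against young rats gave 4 higher and 5 lower (11.3% and 4.61%). Without aged unimpaired replicate 8 the count of 9 became 5 and the count of 8 became 5, and 11.5% and 10.4% of all probe sets were then past that level in the same directions. Without the 4 arrays with the most meningeal signal these counts were 8 and 9. Of all probe sets, 12.2% and 10.2% were then past that level in the same directions.

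Per array, the median deviation of the 41 genes from their means over all arrays ran from -0.03 to 0.10 in aged impaired, from -0.16 to 0.01 in aged unimpaired and from -0.05 to 0.11 in young rats. The value of -0.16 belongs to aged unimpaired replicate 8, where 8 of 41 genes lay above their own mean, and the same array had the lowest median deviation over all tested probe sets, -0.06. Its summed signal of 8 general neuron markers was also the lowest, 14.80, where the other aged unimpaired arrays began at 14.97. For the whole list of 8 measured markers the range was 15.01 to 15.14 in aged impaired, 14.80 to 15.06 in aged unimpaired and 14.99 to 15.15 in young rats. The interneuron markers (6 of 8 measured) spanned 12.14 to 12.31 in aged impaired, 11.88 to 12.13 in aged unimpaired and 11.97 to 12.34 in young rats. The aged impaired and aged unimpaired ranges of the interneuron list did not overlap. Other lists differed in median by age. Pyramidal neuron markers (9 of 10 measured) spanned 12.38 to 12.55 in aged impaired, 12.19 to 12.58 in aged unimpaired and 12.51 to 12.75 in young rats. Microglia markers (5 of 7) spanned 12.11 to 12.75, 12.22 to 12.45 and 11.94 to 12.44 in the same groups, and granule neuron markers 13.12 to 13.47, 13.02 to 13.55 and 13.16 to 13.73. Medians were lower in both aged groups for the pyramidal, granule and endothelium lists and Ttr. They were higher for the microglia and meningeal lists, and all these ranges overlapped. The part of these markers in the differences of the vesicle genes was not tested.

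**Figure D2:**
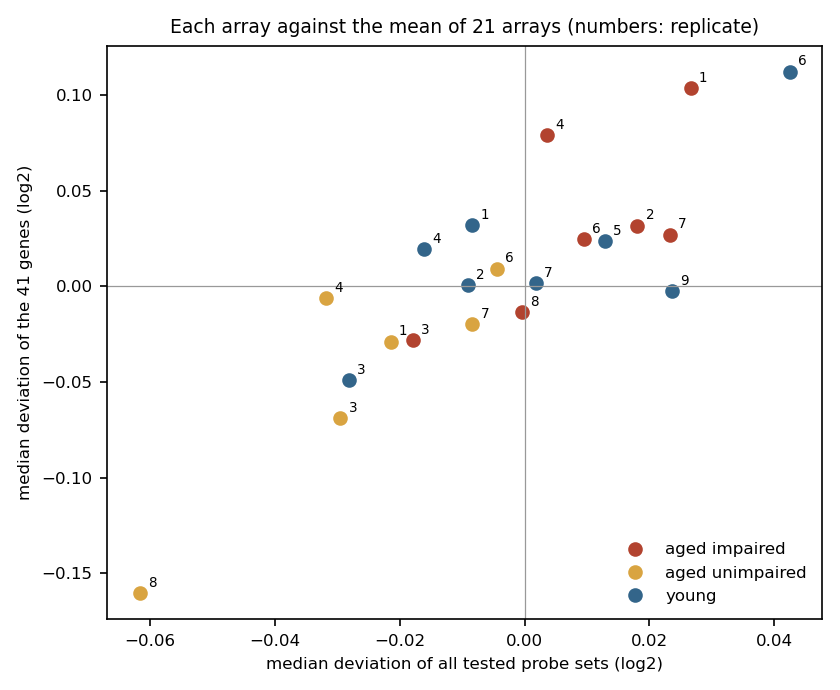
Median log2 deviation of the 41 genes on each array (vertical) against that of all tested probe sets (horizontal), 1 point per array, numbered by replicate within its group. Aged unimpaired replicate 8 is at the lower left with -0.16 and -0.06, and young replicate 6 is at the upper right with 0.11 and 0.04.

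Synaptotagmins are the calcium sensors of vesicle fusion, and 8 were measured. Syt1, the fast sensor of synchronous release, had a lowest, median and highest value of 8.01, 8.23 and 8.71 in aged impaired rats, 7.85, 8.13 and 8.35 in aged unimpaired rats and 7.99, 8.08 and 8.32 in young rats. All groups overlapped. The difference between aged impaired and young rats was 0.16 ± 0.09 (adjusted p = 0.492, limma), with 6 of 7 aged impaired arrays above the young mean, and it was 0.08 without aged impaired replicate 1.

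Syt11, a relative that does not bind calcium and acts in endocytosis, showed the widest spread of the set. It had 8.68, 8.84 and 9.35 in aged impaired rats, 7.97, 8.87 and 9.21 in aged unimpaired rats and 8.82, 9.31 and 9.40 in young rats (lowest, median and highest). Aged arrays lay below the young mean in 12 of 13 cases, but both aged groups overlapped the young range. All aged minus young was -0.41 ± 0.14, a ratio of 0.755 (adjusted p = 0.156, limma), with a 95% interval of -0.69 to -0.12. The single comparisons gave -0.31 ± 0.16 for aged impaired minus young (adjusted p = 0.425, limma) and -0.50 ± 0.16 for aged unimpaired minus young (adjusted p = 0.132, limma).

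Syt4, found on dense core vesicles and also insensitive to calcium in one of its domains, was on the same side. Its values were 10.30, 10.44 and 10.63 in aged impaired rats, 10.22, 10.44 and 10.55 in aged unimpaired rats and 10.40, 10.57 and 10.85 in young rats. The aged arrays were below the young mean in 12 of 13 cases with overlap of the ranges, and all aged minus young was -0.16 ± 0.06 (adjusted p = 0.210, limma). A further probe set of Syt4 gave -0.13 for the same difference. Pyramidal and granule neuron markers, lower by median in aged rats, ran the same way as the probe sets used for Syt4, Syt11 and Snap29. So did Ttr and the endothelium markers, the latter with medians of 10.68 in aged impaired, 10.52 in aged unimpaired and 10.77 in young rats. General neuron markers did not in aged impaired rats, with a median of 15.09 beside 15.07 in young rats. The part of any list in these differences was not tested.

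Syt16, a synaptotagmin without the usual calcium sites, had its largest difference between the aged groups. It had 9.37, 9.57 and 9.88 in aged impaired rats, 8.84, 9.31 and 9.50 in aged unimpaired rats and 9.27, 9.52 and 9.64 in young rats. Every aged impaired array lay above the aged unimpaired mean, while the ranges of the aged groups overlapped. Aged impaired minus aged unimpaired was 0.33 ± 0.10, a ratio of 1.26 (adjusted p = 0.170, limma), and after quantile normalization it was 0.26. Aged unimpaired minus young was -0.24 ± 0.09 (adjusted p = 0.202, limma), and -0.15 without aged unimpaired replicate 4. Of the other 4, Syt3, Syt5, Syt7 and Syt17, no difference between groups exceeded 0.12 in size.

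**Figure D3:**
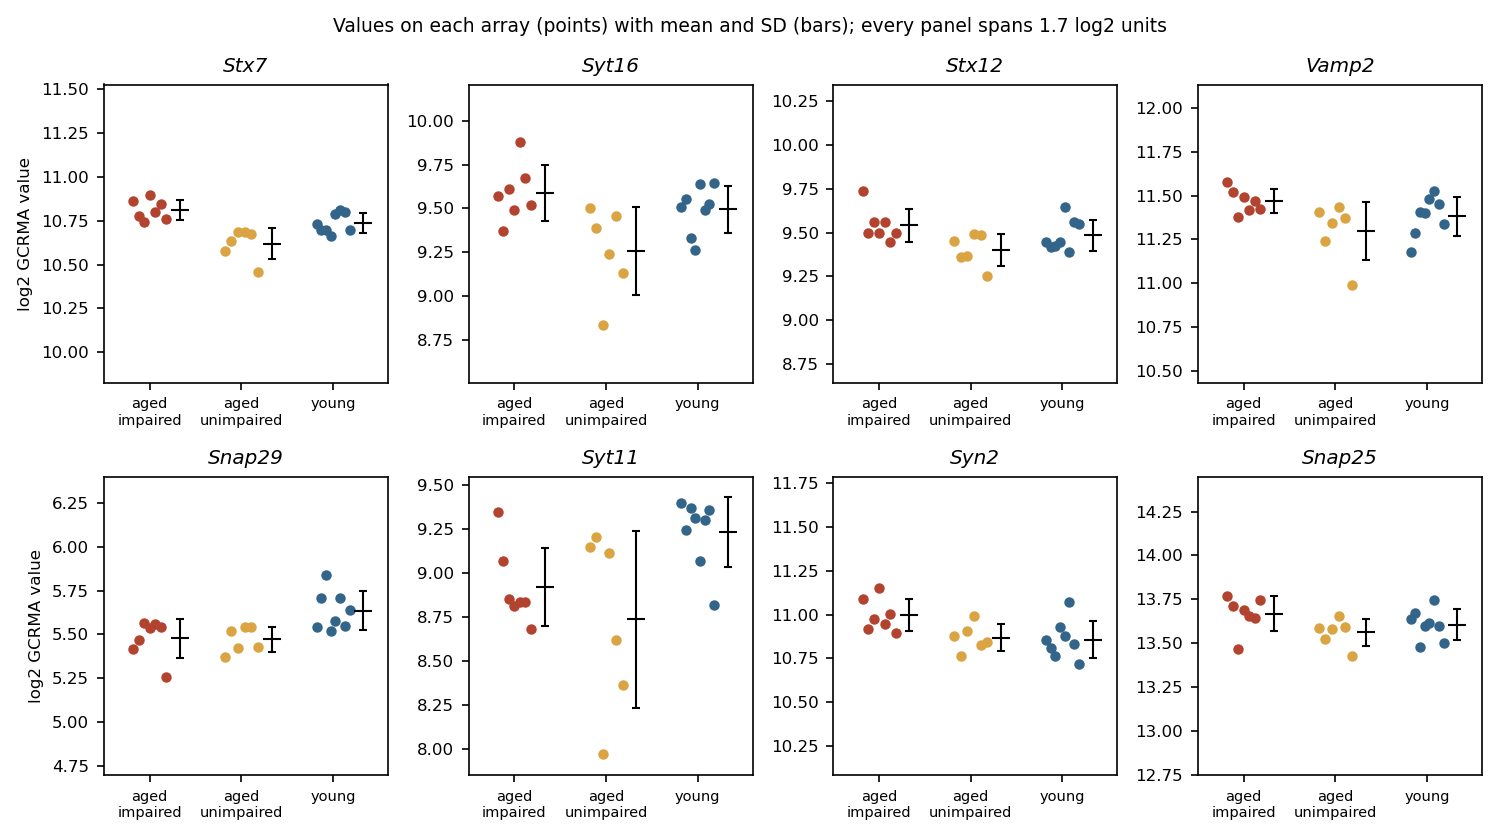
Log2 values of 8 genes on every array, with aged impaired rats on the left, aged unimpaired rats in the middle and young rats on the right of each panel, and the mean with its SD beside the points. Only Stx7 shows no overlap between the aged groups, and the Snap29 points of both aged groups lie below the young mean of 5.63.

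The plasma membrane SNAREs are the target side of fusion. Snap25, the SNAP protein of nerve terminals, had 13.47, 13.69 and 13.77 in aged impaired rats, 13.43, 13.59 and 13.65 in aged unimpaired rats and 13.48, 13.61 and 13.75 in young rats. The 3 ranges lay almost on top of each other. Its difference was 0.06 ± 0.05 for aged impaired minus young, -0.04 ± 0.05 for aged unimpaired minus young and 0.11 ± 0.05 for aged impaired minus aged unimpaired (adjusted p = 0.657, 0.692 and 0.351, limma), and the last of these was 0.05 after quantile normalization.

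Stx1a, the syntaxin that pairs with Snap25, had 9.11, 9.29 and 9.58 in aged impaired rats, 8.92, 9.18 and 9.34 in aged unimpaired rats and 9.21, 9.36 and 9.66 in young rats. All 6 aged unimpaired arrays were under the young mean, with overlap. The difference between aged unimpaired and young rats was -0.21 ± 0.08 (adjusted p = 0.206, limma), and a further probe set of Stx1a gave -0.22.

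Snap23, the counterpart of Snap25 outside nerve terminals, had 6.95, 6.99 and 7.30 in aged impaired rats, 6.44, 6.91 and 7.21 in aged unimpaired rats and 6.74, 6.98 and 7.20 in young rats. Every aged impaired array was above the aged unimpaired mean and the ranges overlapped. Aged impaired minus aged unimpaired was 0.22 ± 0.10 (adjusted p = 0.291, limma), 0.14 without aged unimpaired replicate 8, and 0.04 by a further probe set. Together with Stx4, a syntaxin of non-neuronal and dendritic exocytosis at 0.12 ± 0.05 (0.06 after quantile normalization and 0.07 without the 4 arrays with the most meningeal signal), all 4 plasma membrane SNAREs were positive in this comparison, also after quantile normalization.

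The syntaxins of inner membranes serve endosomes, lysosomes, Golgi and endoplasmic reticulum. Stx7, a syntaxin of late endosomes, had the smallest p of the set between the aged groups. Its lowest, median and highest values were 10.74, 10.80 and 10.89 in aged impaired rats, 10.46, 10.65 and 10.69 in aged unimpaired rats and 10.66, 10.71 and 10.81 in young rats. All 7 aged impaired arrays lay above all 6 aged unimpaired arrays, the only gene of the 41 without overlap in any comparison. Of all tested probe sets, 1.05% had no overlap between the aged groups, 0.316% between aged impaired and young, 0.949% between aged unimpaired and young and 0.0857% between all aged and young. The young range lay between and overlapped both.

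Aged impaired minus aged unimpaired was 0.19 ± 0.04 for Stx7, a ratio of 1.14 with a 95% interval of 0.10 to 0.28. It did not pass (adjusted p = 0.129, limma), and an exact two-sided permutation of the arrays of this gene alone gave an unadjusted p of 0.000583. That is the lowest value that 1716 regroupings allow, so it restates the lack of overlap for a gene picked by its small p. Aged impaired minus young was 0.08 ± 0.04 (adjusted p = 0.448, limma), with 7 of 7 arrays above the young mean. Aged unimpaired minus young was -0.12 ± 0.04 (adjusted p = 0.158, limma), with 6 of 6 arrays below it. The difference between the aged groups was 0.16 without aged unimpaired replicate 8 and 0.13 after quantile normalization.

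Stx12, a syntaxin of recycling endosomes, had 9.45, 9.50 and 9.73 in aged impaired rats, 9.25, 9.41 and 9.49 in aged unimpaired rats and 9.39, 9.45 and 9.64 in young rats. Every aged impaired array was above the aged unimpaired mean, and the ranges overlapped slightly. The difference was 0.14 ± 0.05 (adjusted p = 0.237, limma), and it was 0.07 after quantile normalization. A further probe set of Stx12 gave -0.02.

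Snap29, a SNARE of autophagosome and endosome fusion, was the gene nearest to the threshold in the comparison by age. It had 5.26, 5.54 and 5.56 in aged impaired rats, 5.37, 5.47 and 5.54 in aged unimpaired rats and 5.52, 5.61 and 5.84 in young rats. All 13 aged arrays were below the young mean, while the upper end of both aged ranges overlapped the lower end of the young range. All aged minus young was -0.16 ± 0.05, a ratio of 0.895 (adjusted p = 0.101, limma). The 2 aged groups gave nearly the same value, -0.16 ± 0.05 for aged impaired minus young (adjusted p = 0.203, limma) and -0.16 ± 0.06 for aged unimpaired minus young (adjusted p = 0.147, limma). A further probe set of Snap29, which is marked as matching several transcripts by its _s suffix, gave 0.03 for all aged minus young, so the probe sets of this gene disagree. The remaining 5 genes of this role, Stx5, Stx6, Stx8, Stx16 and Stx18, had differences of at most 0.10 in size in every comparison.

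The promoter windows of Stx7 and Stx12 are shown because these syntaxins had the smallest p values of their role between the aged groups and their windows share a 10-base palindrome that is the recognition sequence of NRF1. RefSeq windows on GRCr8, from 250 bases before to 50 after the annotated start, were found for 33 of the 41 genes. Stxbp5, a syntaxin binding protein, was the only other of the 33 windows with this word. That is 9.09% of the member windows and 0.852% of 33469 windows of the same length. These windows were not matched to the members for composition or expression. The word is mostly G and C, and member windows hold more of these letters than all windows, as given below. The word was picked after the windows were searched for 6 motifs on both strands, none of which holds another, and a match is a description of the letters. Its letters are in capitals, and it begins 79, 80 and 18 bases before the start of Stx7 (chr1:23056416-23056715, minus strand), Stx12 (chr5:150376297-150376596, minus strand) and Stxbp5 (chr1:6155479-6155778, minus strand).
Stx7: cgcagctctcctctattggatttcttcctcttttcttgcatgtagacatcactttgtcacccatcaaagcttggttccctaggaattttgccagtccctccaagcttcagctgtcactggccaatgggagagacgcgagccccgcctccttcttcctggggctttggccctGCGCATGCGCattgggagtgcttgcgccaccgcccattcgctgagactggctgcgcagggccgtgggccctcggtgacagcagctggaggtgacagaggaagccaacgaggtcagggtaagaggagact
Stx12: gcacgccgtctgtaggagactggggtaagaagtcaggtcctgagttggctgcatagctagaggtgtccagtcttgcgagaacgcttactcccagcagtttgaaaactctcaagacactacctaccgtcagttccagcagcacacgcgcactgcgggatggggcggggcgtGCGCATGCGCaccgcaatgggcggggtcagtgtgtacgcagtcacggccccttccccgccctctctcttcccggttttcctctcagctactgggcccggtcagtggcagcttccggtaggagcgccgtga
Stxbp5: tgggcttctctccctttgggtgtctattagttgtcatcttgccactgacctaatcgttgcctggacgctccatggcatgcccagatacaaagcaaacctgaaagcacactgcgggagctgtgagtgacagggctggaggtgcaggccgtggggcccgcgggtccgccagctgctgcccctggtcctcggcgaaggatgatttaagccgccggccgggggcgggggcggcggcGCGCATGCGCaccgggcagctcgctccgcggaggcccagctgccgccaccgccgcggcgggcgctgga

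The correlation of their deviations from the group means over 21 arrays was 0.41 for Stx7 with Stx12 (Spearman 0.25), 0.59 for Stx7 with Stxbp5 (Spearman 0.52) and 0.57 for Stx12 with Stxbp5 (Spearman 0.57). Without the 2 arrays farthest from the median it was 0.32, 0.48 and 0.44, and without aged unimpaired replicate 8 it was 0.25, 0.49 and 0.49. Stx7 had higher correlations with Rims1 (0.73) and Vamp2 (0.71), whose windows lack the palindrome. The part of the palindrome in these correlations was not tested. Stxbp5 (tomosyn, which competes with Vamp2 for the SNARE complex) was at 0.17 ± 0.12 in aged impaired minus young and 0.06 ± 0.12 in aged unimpaired minus young (adjusted p = 0.607 and 0.846, limma), and the first of these was 0.26 without the 4 arrays with the most meningeal signal.

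Most member windows were rich in G and C. Their median GC content was 63.0%, beside 51.7% over all windows, and 69.7% had an observed over expected CpG ratio above 0.6, beside 34.3%. The GC box GGGCGG was found in 23 of 33 windows, or 69.7%, beside 33.1% of all, and the CCAAT box (letters CCAAT) in 14, or 42.4%, beside 37.5%. The TATA box TATAAA was found in 1 window, that of Stxbp3, or 3.03%, beside 14.2%. The E-box CACGTG was in the windows of Stx6 and Snap29, or 6.06%, beside 6.42%.

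The vesicle SNAREs are the other side of the complex. Vamp2, the main synaptobrevin of the forebrain, had 11.38, 11.47 and 11.58 in aged impaired rats, 10.99, 11.36 and 11.44 in aged unimpaired rats and 11.18, 11.40 and 11.52 in young rats. Every aged impaired array was above the aged unimpaired mean, and the low end of the aged unimpaired range was again replicate 8. Aged impaired minus aged unimpaired was 0.17 ± 0.07 (adjusted p = 0.243, limma), and 0.11 without that array or after quantile normalization.

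Vamp1, the other neuronal synaptobrevin, had means of 10.61 ± 0.12 in aged impaired, 10.66 ± 0.10 in aged unimpaired and 10.68 ± 0.12 in young rats (SD, n = 7, 6 and 8). Its difference between aged impaired and young rats was -0.07 ± 0.06 (adjusted p = 0.702, limma). A further probe set gave 0.29 ± 0.12 (adjusted p = 0.298, limma), the opposite sign. The other 4, Vamp3, Vamp4, Vamp7 and Vamp8, act in endosomal and lysosomal fusion, and Vamp8 had 0.16 ± 0.13 in aged impaired minus young with an interval of -0.11 to 0.42. The 3 highest aged impaired values of Vamp8, 6.08 to 6.32, were those of replicates 2, 3 and 7, and without the 4 arrays with the most meningeal signal its difference was -0.06.

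Complexins bind the assembled SNARE complex. Cplx1 had means of 11.52 ± 0.10 in aged impaired, 11.44 ± 0.04 in aged unimpaired and 11.49 ± 0.07 in young rats (SD). Cplx2 had 9.93, 10.23 and 10.48 in aged impaired rats, 9.86, 10.30 and 10.48 in aged unimpaired rats and 9.98, 10.42 and 10.79 in young rats, so that the ranges overlapped throughout. All aged minus young was -0.18 ± 0.10 for Cplx2 (adjusted p = 0.438, limma) and -0.01 ± 0.04 for Cplx1 (adjusted p = 0.906, limma).

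Unc13a (Munc13-1) opens syntaxin for priming, and Rims1 tethers it at the active zone. Unc13a had 6.99, 7.40 and 8.15 in aged impaired rats, 6.52, 7.12 and 7.41 in aged unimpaired rats and 6.94, 7.22 and 7.57 in young rats. The aged impaired group reached highest and the aged unimpaired group lowest, with a wide overlap. Aged impaired minus aged unimpaired was 0.32 ± 0.17, with a 95% interval of -0.02 to 0.66 (adjusted p = 0.382, limma), and it was 0.19 without aged impaired replicate 1 and 0.21 without aged unimpaired replicate 7. Rims1 had means of 8.30 ± 0.24 in aged impaired, 8.13 ± 0.19 in aged unimpaired and 8.27 ± 0.21 in young rats (SD), and the aged groups differed by 0.17 ± 0.11 (adjusted p = 0.50, limma). The Rims1 difference was 0.11 without aged impaired replicate 1 and 0.10 without aged unimpaired replicate 8.

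The membrane proteins of the vesicle include synaptophysin (Syp), its most used marker, the SV2 proteins and the synaptogyrins. Syp averaged 11.55 ± 0.10 in aged impaired, 11.51 ± 0.11 in aged unimpaired and 11.57 ± 0.10 in young rats (SD), and its intervals lay between -0.14 and 0.09 for aged impaired minus young and between -0.18 and 0.06 for aged unimpaired minus young. Sv2a, the binding partner of the drug levetiracetam, had 8.69, 8.89 and 9.03 in aged impaired rats, 8.59, 8.72 and 8.96 in aged unimpaired rats and 8.68, 8.91 and 9.16 in young rats. These ranges overlapped, and all aged minus young was -0.12 ± 0.06 (adjusted p = 0.400, limma).

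Sv2b averaged 12.17 ± 0.27 in aged impaired, 12.14 ± 0.17 in aged unimpaired and 12.20 ± 0.14 in young rats (SD). Its aged unimpaired minus young difference was -0.06 ± 0.10, and another Sv2b probe set gave -0.36 ± 0.15 (adjusted p = 0.821 and 0.238, limma). Syngr3, a neuronal synaptogyrin, had 10.41, 10.60 and 10.73 in aged impaired rats, 10.39, 10.53 and 10.61 in aged unimpaired rats and 10.56, 10.62 and 10.77 in young rats. Aged arrays were below the young mean in 10 of 13 cases, and all aged minus young was -0.09 ± 0.05 (adjusted p = 0.403, limma).

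Synapsins tie vesicles to the cytoskeleton. Syn2 had 10.90, 10.97 and 11.15 in aged impaired rats, 10.76, 10.86 and 10.99 in aged unimpaired rats and 10.72, 10.85 and 11.07 in young rats. All 7 aged impaired arrays were above both the young mean and the aged unimpaired mean, with overlap. Aged impaired minus young was 0.14 ± 0.05, a ratio of 1.10 (adjusted p = 0.238, limma), and aged impaired minus aged unimpaired was 0.13 ± 0.05 (adjusted p = 0.288, limma) and 0.06 after quantile normalization. The 2 further probe sets of Syn2 gave 0.06 and 0.11 for aged impaired minus young, and -0.03 and 0.03 for aged impaired minus aged unimpaired.

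Syn1 averaged 11.75 ± 0.05 in aged impaired, 11.66 ± 0.12 in aged unimpaired and 11.70 ± 0.08 in young rats (SD), and the aged groups differed by 0.09 ± 0.05 (adjusted p = 0.403, limma). Snap91 (AP180), the clathrin adaptor that helps recover vesicle membrane, averaged 12.22 ± 0.09 in aged impaired, 12.13 ± 0.08 in aged unimpaired and 12.23 ± 0.05 in young rats (SD). Its aged unimpaired minus young difference was -0.11 ± 0.04 (adjusted p = 0.219, limma), and -0.05 after quantile normalization.

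Syn1 and Vamp1 are shown with their promoter windows because of the cyclic AMP response element TGACGTCA, the palindrome bound by CREB. Of the 33 members with a window only these 2 held the full element. That is 6.06% of the 33 member windows, beside 1.83% of all windows. It is in capitals and begins 190 bases before the start of Syn1 (chrX:3725495-3725794, plus strand) and 71 before that of Vamp1 (chr4:159698644-159698943, plus strand). Deviations of Syn1 and Vamp1 from their group means had a correlation of 0.62 over 21 arrays (Spearman 0.53). It was 0.65 without the 2 arrays farthest from the median of Vamp1 and 0.54 without aged unimpaired replicate 8. Syp, whose window lacks this element, had 0.80 with Syn1 and 0.72 with Vamp1. Syn1 exceeded 0.5 with 12 members and Vamp1 with 8. The part of the element in these correlations was not tested.
Syn1: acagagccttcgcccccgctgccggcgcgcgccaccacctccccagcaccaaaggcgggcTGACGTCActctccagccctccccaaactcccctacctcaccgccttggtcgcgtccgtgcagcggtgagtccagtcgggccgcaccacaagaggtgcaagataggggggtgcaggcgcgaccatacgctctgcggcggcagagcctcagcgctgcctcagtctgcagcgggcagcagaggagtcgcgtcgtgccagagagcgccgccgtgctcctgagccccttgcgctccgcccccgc
Vamp1: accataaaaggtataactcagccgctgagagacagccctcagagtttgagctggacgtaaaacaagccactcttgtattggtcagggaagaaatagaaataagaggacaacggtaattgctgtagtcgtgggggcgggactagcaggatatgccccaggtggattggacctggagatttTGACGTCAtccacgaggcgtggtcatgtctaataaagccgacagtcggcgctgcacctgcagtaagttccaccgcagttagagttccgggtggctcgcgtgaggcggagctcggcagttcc

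Members also varied together from array to array within groups. The correlations use the values as deposited and were not repeated under the other scalings. Over 820 pairs of members the median correlation of deviations from group means was 0.118, beside 0.0639 over all pairs of 8737 genes, and 11.8% of member pairs exceeded 0.5, beside 4.49% of all pairs. These pairs share the same 21 arrays. The pair of Syp and Syn1 was highest at 0.80 (Spearman 0.74), and 0.76 without the 2 arrays farthest from the median. Stx1a with Vamp7 had 0.77 (0.64 without 2 arrays), Stx7 with Rims1 0.73 (0.65) and Vamp1 with Syp 0.72 (0.69). The lowest was Snap25 with Vamp8 at -0.54, and -0.38 without 2 arrays. Stx7 exceeded 0.5 with 13 other members, Snap25 with 11 and Syt11 and Syt16 with 0.

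**Figure D4:**
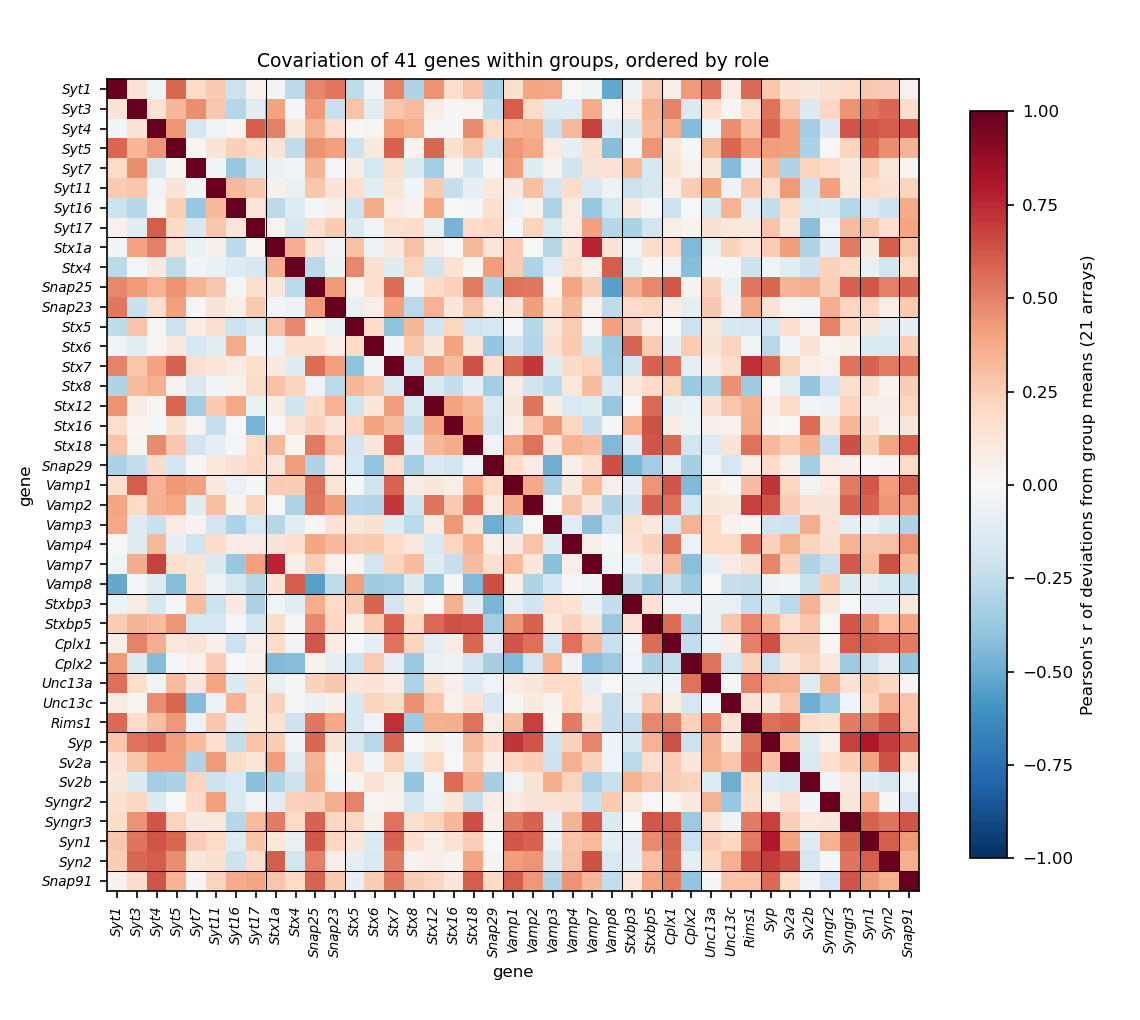
Pearson correlation of deviations from group means over 21 arrays for each pair of the 41 genes, ordered by role, with red for positive and blue for negative values. Syp, Syn1, Syn2, Syngr3 and Snap25 form red bands across several roles, while the row of Vamp8 is mostly blue and reaches -0.54 with Snap25.

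Further probe sets of the same genes gave the same count of calls. There were 19 of them for 17 genes, and 0 passed in each of the 4 comparisons. Their sign matched that of the probe set used in 13 of 19 for aged impaired minus young, 14 for aged unimpaired minus young, 13 for aged impaired minus aged unimpaired and 14 for all aged minus young. The largest was a second Stxbp5 probe set at 0.43 ± 0.21 for aged impaired minus young (adjusted p = 0.401, limma), where the one used gave 0.17.

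The 21 genes below the filter had values from 1.79 to 4.27, and 18 of them were never above log2 4. They include Syngr1, Syn3, Sv2c, Unc13b, Rims3, Syt2 and Syt9. Rims2 came nearest with 5 arrays above 4 and means of 3.93, 3.74 and 3.84 in aged impaired, aged unimpaired and young rats, followed by Stx3 and Stxbp2 with 2 arrays each. On the other side of the filter every member used was above 4 on all 21 arrays, and the lowest mean was 5.54 for Snap29.

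Other presynaptic genes were counted from lists of vesicular transporters, active zone scaffolds, the Rab3 cycle, priming and SNARE recycling, vesicle chaperones, endocytosis and the proton pump. Of 58 genes 44 were measured, and 0 passed in any of the 4 comparisons in either direction. For aged impaired minus aged unimpaired 37 of 44 were positive as deposited, 35 after median centring and 21 after quantile normalization. For aged unimpaired minus young the counts in the same order were 16, 17 and 28, for aged impaired minus young 29, 27 and 25 and for all aged minus young 22, 20 and 29. Of these 2 scalings, quantile normalization moved the counts by 4 to 16 genes and median centring by at most 2. Ppfia1 (liprin alpha 1, an active zone scaffold) came nearest, with means of 7.83 in aged impaired, 7.67 in aged unimpaired and 7.90 in young rats. Its difference was -0.24 ± 0.06 for aged unimpaired minus young (adjusted p = 0.0617, limma), and it passed without young replicate 1. Rab3gap1, which switches Rab3 off, was at -0.37 ± 0.12 for aged impaired minus young (adjusted p = 0.158, limma), and Nsf, the ATPase that takes SNARE complexes apart, at 0.14 ± 0.05 (adjusted p = 0.193, limma).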

How the data were processed

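Total RNA from the dentate gyrus of single rats was measured on 24 labelled arrays. The authors made the deposited log2 values with GCRMA, per the submitters' processing notes, with no version given in the sources used here. The submitters omitted 3 arrays, 1 per group, after quality control, per the labels, and their columns are empty, which leaves 21. Groups follow the titles, young replicate 9 included. Labels give no batch. The number of arrays limits the precision.

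Of 31042 probe sets other than controls, 15177 were above log2 4 on at least 6 arrays. Gene symbols came from the platform annotation, and 11476 of the tested probe sets have 1 symbol, 281 several and 3420 none. All 41 members matched a RefSeq gene of GRCr8. The 3 groups entered a single limma 3.58.1 fit (R 4.3.3) with 18 residual degrees of freedom, with Benjamini-Hochberg adjustment, after the script was tested on simulated data. P-values measure the spread between arrays. Genes named are the 6 with the smallest p per comparison and 18 textbook release genes, of which 15 were measured. Members, lists and roles were chosen with earlier results of these data known, and motifs after values were seen. Comparisons with young rats share the same young arrays. Alternatives were other scalings, filters, probe sets, variance models, array weights, a replicate block, leaving out arrays, and exact permutation.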

Additional observations from a re-analysis of the deposited data

Results flagged for a closer look

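Values of single genes and of the median of the 41 genes were examined within groups. Of these 72 sets 3 held an array far from the others, and chance gives about 1 in 20. Stx12 had 9.73 in aged impaired replicate 1, above the other 6 at 9.45 to 9.56. Snap25 had 13.5 in aged impaired replicate 3, one of the arrays with high meningeal markers, below the other 6 at 13.64 to 13.77. Rims1 had 7.76 in aged unimpaired replicate 8, below the other 5 at 8.10 to 8.29. That array was also low for general neuron markers and for the median of the 41 genes, which was not flagged as far.

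Stx7 lay above the young mean in 7 of 7 aged impaired arrays and below it in 6 of 6 aged unimpaired arrays. The test of that difference is the comparison of the aged groups, 0.19, which did not pass (adjusted p = 0.129, limma).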

How the results depend on the processing

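Beside the values reported, 31 other settings were run. The count of members that passed was 0 in each of the 4 comparisons under every setting that gave an adjusted p. These include the median centring, the filters, the largest-variance probe set and each array left out. Exact permutation, also among the 31, gave an unadjusted p only, for the genes named. In the F test over 3 groups the count was 1, Stx7, with an intensity trend and robust variance model, and 1, again Stx7, with array weights. For the other presynaptic genes, aged unimpaired minus young, the count was 1 (Ppfia1) with array weights, and 0 to 1 with single arrays left out. The shares of all probe sets that passed in these settings were not counted, so these calls cannot be set against them. The majority sign of the members turned for aged unimpaired minus young and for all aged minus young after quantile normalization, not after median centring. The median member difference moved after quantile normalization, to 0.0015 for aged unimpaired minus young and 0.0117 for aged impaired minus aged unimpaired, and to 0.0101 for all aged minus young, and the cause was not tested. With single arrays left out it ranged over 0.0125 to 0.0423 for aged impaired minus young, -0.0649 to -0.0267 for aged unimpaired minus young, 0.0512 to 0.0929 for aged impaired minus aged unimpaired and -0.0225 to -0.0028 for all aged minus young. Whether replicate numbers mark a pairing or a shared batch is not known from the labels. Of 17 same-numbered pairs 4 had a correlation of deviations above 0.1 (range -0.12 to 0.20). Pairs with different numbers were not compared, so this count cannot decide it. With the replicate block 0 members passed in each comparison, and Stx7 was at 0.20 ± 0.04 between the aged groups (adjusted p = 0.133, limma). The smallest adjusted p of a member for aged impaired minus young went from 0.203 to 0.0955 with that block (limma). The 24 smallest-p differences kept their sign in 741 of 741 values, exact permutation included. Of the values with an adjusted p, 0 passed. They were picked from these same data and most settings share nearly all arrays, so this count is no support for their direction. Further probe sets matched in sign in 13 or 14 of 19 cases per comparison. Those of Snap29 for all aged minus young (0.03) and of Stx12 between the aged groups (-0.02) did not. For Stx7 between the aged groups, adjusted p ranged over 0.0816 to 0.272 (limma). Of the differences of textbook release genes 75 of 1643 values had the other sign, none with a size above 0.07 as reported.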
